A study of Mus musculus with 6 samples.

Results

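The sensors of foreign or misplaced nucleic acid were examined in bone marrow-derived mesenchymal stromal cells (MSCs), as 10 genes listed by symbol: the RNA sensors Ddx58 (RIG-I), Ifih1 (MDA5), Dhx58 (LGP2), Tlr3 and Eif2ak2 (PKR), the nucleic acid sensor Zbp1, the adaptors Mavs and Tmem173 (STING), the kinase Tbk1 and the transcription factor Irf3. All 10 of the 10 were found among the 23420 genes of the count table and all 10 passed the filter on low counts, which left 11974 genes to be tested. The study set 3 Ctl MSC libraries against 3 MSC-TPr libraries. Both groups came from femur MSCs of female C57BL/6 mice aged 6 to 8 weeks and were grown in the same medium. MSC-TPr received the AP2 retroviral construct coding for the thymoproteasome subunits β1i (Psmb9), β2i (Psmb10) and β5t (Psmb11) with eGFP as a marker, and Ctl MSC the empty AP2 construct, so both carry retroviral sequence.

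RIG-I and MDA5 are cytosolic helicases that bind viral RNA and signal through MAVS on mitochondria, and LGP2 is a related helicase that lacks the signalling domains and tunes both. TLR3 reads RNA duplexes in endosomes, STING relays the signal of cytosolic DNA, and all of these routes meet at the kinase TBK1, which phosphorylates IRF3 so that type I interferon is transcribed. Several of the sensors are themselves interferon-stimulated genes, while Mavs, Tbk1 and Irf3 are expressed in most cells at rest.

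Reads counted on genes ranged from 16158756 to 22158887 in the 6 libraries. The detection limit was set at 3 reads, equal to 0.139 to 0.181 CPM (reads scaled to library size, with edgeR's TMM factors). This limit covers counting error only. Of the stromal markers, Eng had 142 to 204 CPM and Col1a1 354 to 6912 CPM, whereas Thy1, the gene of CD90, had 0 or 1 read in every library. Nt5e, the gene of CD73, had 188, 379 and 316 reads in Ctl MSC 1, 2, 3 and 48, 71 and 113 reads in MSC-TPr 1, 2, 3. Ptprc, the pan-leukocyte marker, had 0 to 2 reads. The 10 haematopoietic markers summed to 1.99 to 14.7 CPM, and to 0.498 to 1.75 CPM without Cd68, and the 5 endothelial markers to 0.785 to 3.32 CPM. The transduced genes did not follow the labels, since Psmb11 had 2 to 4 reads in the Ctl MSC libraries and 1 to 6 reads in the MSC-TPr libraries, and neither Psmb9 nor Psmb10 was higher in each MSC-TPr library. Psmb10 measured 27.8, 17.3 and 15.2 CPM in Ctl MSC 1 and MSC-TPr 2 and 3, and 8.81, 8.38 and 8.96 CPM in Ctl MSC 2 and 3 and MSC-TPr 1. Each direction below is therefore one between library labels. The libraries numbered 1 also stood apart from the others of their group, as 22 genes of cell division averaged 6.67, 3.61 and 3.60 on the log2(CPM + 0.5) scale for Ctl MSC 1, 2, 3 but 3.58, 6.63 and 6.65 for MSC-TPr 1, 2, 3. On both measures the libraries numbered 1 sat with the other label. The first principal component of all genes tested (58.5% of the variance) placed them so too. On it Ctl MSC 1 (40.9) stood beside MSC-TPr 2 and 3 (50.3 and 49.4). MSC-TPr 1 (−40.5) stood beside Ctl MSC 2 and 3 (−50.8 and −49.2). The second component (28.3% of the variance) instead placed the Ctl MSC libraries at −48.9 to −19.6 and the MSC-TPr libraries at 15.6 to 49.1. Whether the labels of the libraries numbered 1 were exchanged was not tested. With them exchanged, no sensor gene that is described below as lying apart between groups would do so over the 6 libraries, so the sensors are also given without the libraries numbered 1. No source states whether the libraries of a group came from separate cultures, so the p-values measure the spread between these libraries, which may be technical. Ctl MSC 2 and 3 were the most alike, with a chi-square per gene of 4.76, against 50.0 for MSC-TPr 2 and 3. The other pairs within a group gave 154 to 191. Fits on the libraries numbered 2 and 3 have only these alike libraries as Ctl MSC. Their common dispersion (spread beyond counting error) was 0.0168, against 0.124 over the 6 libraries, so their p-values rest on a narrow spread.

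Sequences around the transcription start were available from RefSeq (GRCm38.p6, 250 bases before to 50 bases after the start) for 7 of the 10 genes, namely Ddx58, Ifih1, Tlr3, Eif2ak2, Mavs, Tbk1 and Irf3. They were searched on both strands for 2 copies of GAAA spaced by any 2 bases, the core of the interferon-stimulated response element (ISRE) that interferon-activated factors bind. Matches were found in 3 of the 7, and all 3 lay within the 50 bases after the start. The 3 stretches of 30 bases are shown because they separate sensors with the motif from the remaining 4 genes. They are written 5′ to 3′ on the strand of the gene, with the match in capitals, and all 3 genes lie on the minus strand.
Ddx58, chr4:40239804-40239833: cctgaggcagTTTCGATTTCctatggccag
Ifih1, chr2:62646206-62646235: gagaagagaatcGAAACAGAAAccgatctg
Eif2ak2, chr17:78882535-78882564: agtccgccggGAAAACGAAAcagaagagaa
The match begins at base 3 after the start in Ddx58, where it reads on the opposite strand, at base 33 in Ifih1 and at base 19 in Eif2ak2. Of all 32851 promoters of the same length, 3.44% held the motif and 0.408% held it after the start. A match is a string of letters and not a measured binding site.

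The 100 bases before the start are shown for the 4 of these 7 genes whose groups did not overlap, namely Ddx58, which had a match and was lower in each MSC-TPr library, Tbk1, which had no match and was also lower, and Mavs and Irf3, which had no match and were higher. Ifih1 and Eif2ak2 had a match and groups that overlapped.
Ddx58, chr4:40239826-40239925, minus strand: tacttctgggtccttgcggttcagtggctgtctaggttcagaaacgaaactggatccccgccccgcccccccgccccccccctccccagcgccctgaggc
Tbk1, chr10:121586795-121586894, minus strand: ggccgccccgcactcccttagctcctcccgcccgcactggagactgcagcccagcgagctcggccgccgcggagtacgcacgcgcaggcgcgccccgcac
Mavs, chr2:131233963-131234062, plus strand: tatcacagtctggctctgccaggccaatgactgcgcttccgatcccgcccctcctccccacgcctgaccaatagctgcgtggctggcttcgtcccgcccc
Irf3, chr7:44997548-44997647, plus strand: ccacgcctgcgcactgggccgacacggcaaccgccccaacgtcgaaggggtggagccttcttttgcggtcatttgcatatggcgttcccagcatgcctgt
These stretches hold 68%, 78%, 66% and 63% G or C and 6, 15, 7 and 9 CpG dinucleotides in that order.

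Fold changes are given as MSC-TPr over Ctl MSC throughout. They were negative on the log2 scale for 8 of the 10 sensor genes (as for 48.9% of all genes tested) and positive for 2, with a median of −0.68 where the median of all genes was 0.01. The MSC-TPr libraries all lay below the Ctl MSC libraries for 4 of the 10 (Ddx58, Dhx58, Tmem173 and Tbk1) and all above for 2 (Mavs and Irf3). Among all genes tested, 12.1% lay below and 10.6% lay above without overlap. The same 6 genes did not overlap among the libraries numbered 2 and 3, where the shares of all genes were 39.2% and 38.3%. A gene was called where the adjusted p was under 0.05 and the log2 fold change 0.5 or more in either direction. By this rule edgeR's quasi-likelihood test called 0 of the 10, against 0.426% of all genes, while 5 of the 10 had an unadjusted p under 0.05 (15.0% of all genes). DESeq2 called 3 of the 10 over the same 6 libraries, namely Ddx58, Dhx58 and Tmem173, against 5.28% of all genes. Over the libraries numbered 2 and 3 the same 3 were called by edgeR and by DESeq2, where these tools called 40.0% and 35.2% of all genes. In bulk RNA, a lower level in each cell and fewer cells with the RNA cannot be told apart.

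**Figure D1:**
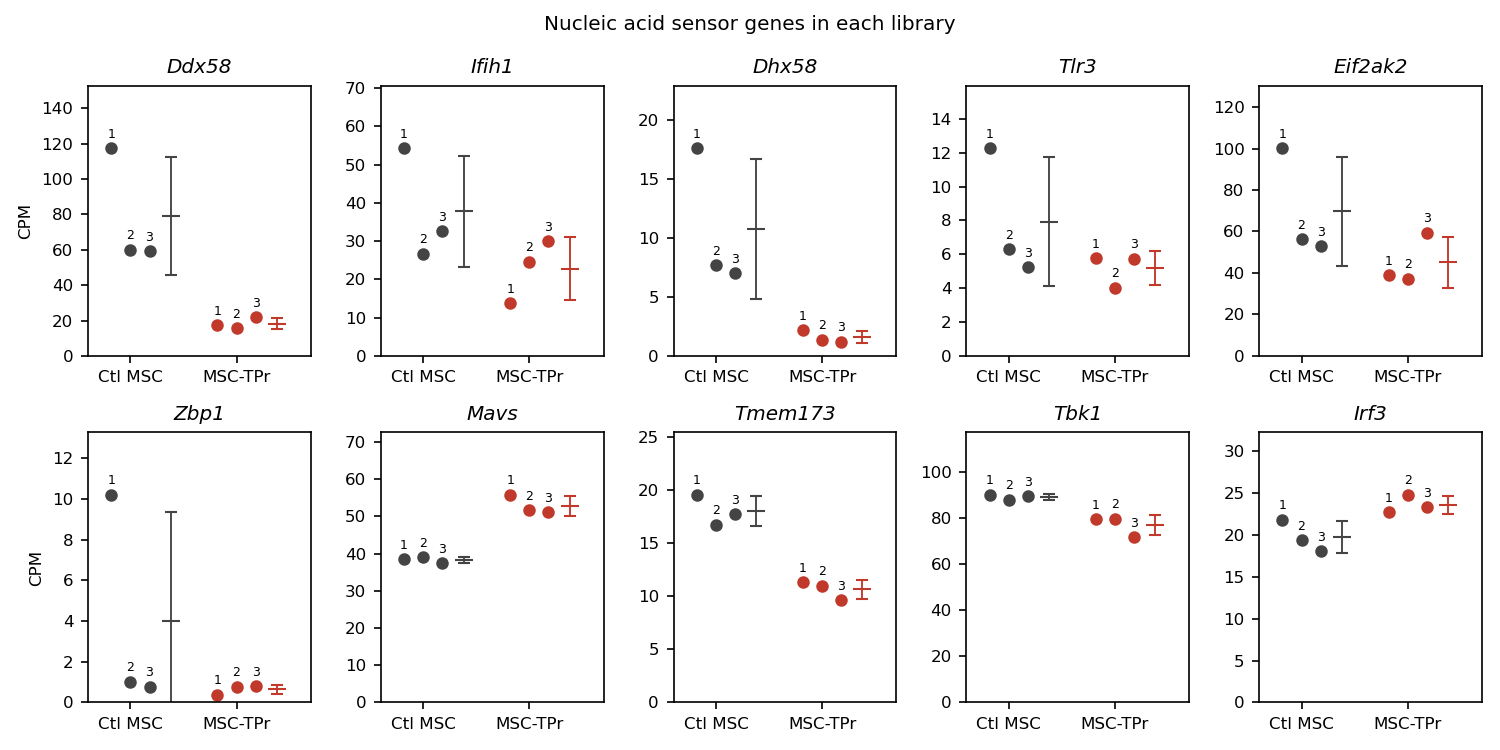
Level of each sensor gene (CPM, linear axes from 0) in the 3 libraries labelled Ctl MSC (grey) and the 3 labelled MSC-TPr (red); numbers are replicate numbers, and the bar beside each group is the mean ± SD (n = 3), cut at 0 for Zbp1. Ddx58 ran from 59.2 to 117 CPM in Ctl MSC and from 15.6 to 21.8 CPM in MSC-TPr, whereas Zbp1 reached 10.2 CPM in Ctl MSC 1 and at most 1.01 CPM elsewhere.

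Ddx58 and Dhx58 had the largest differences between labels that did not rest on 1 library. Ddx58, which encodes RIG-I, the sensor of short RNA with a 5′ triphosphate, lies on chromosome 4 of mm10 from 40203773 to 40239828. It measured 117, 59.9 and 59.2 CPM in the order Ctl MSC 1, 2, 3 and 17.3, 15.6 and 21.8 CPM in the order MSC-TPr 1, 2, 3, and the values of the genes that follow keep this order. The highest MSC-TPr library was thus 2.71 times below the lowest Ctl MSC library. The log2 fold change was −2.11 (SE 0.325, edgeR adjusted p = 0.0697), which fell short of the threshold in edgeR and passed it in DESeq2 (−2.10, SE 0.362, adjusted p = 1.32e-06). Over the libraries numbered 2 and 3 it was −1.66 (SE 0.178, edgeR adjusted p = 0.00122). Without Ctl MSC 1, the edgeR adjusted p was 0.0314, with a log2 fold change of −1.71.

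Dhx58, which encodes LGP2, lies on chromosome 11 from 100694884 to 100704271. It had 291, 144 and 127 reads among the Ctl MSC libraries and 39, 23 and 26 among the MSC-TPr libraries, that is 17.6, 7.69 and 7.00 CPM against 2.16, 1.36 and 1.21 CPM. The groups were 3.24 times apart at their nearest libraries. The log2 fold change was −2.77 (SE 0.475, edgeR adjusted p = 0.0774), with an adjusted p of 6.47e-06 in DESeq2, and −2.52 (SE 0.222, edgeR adjusted p = 0.000637) over the libraries numbered 2 and 3. Among all genes tested, 0.935% had a log2 fold change as low as that of Dhx58 or lower, and 1.72% one as low as that of Ddx58. An antisense gene, Dhx58os, overlaps 141 bases of the exons of Dhx58, and the strand setting of the counting is not given in the sources used here.

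Ifih1, the gene of MDA5, which binds long RNA duplexes, lies on chromosome 2 from 62595798 to 62646255 and did not separate by label. It measured 54.3, 26.7 and 32.6 CPM among the Ctl MSC libraries and 13.8, 24.7 and 29.9 CPM among the MSC-TPr libraries. The fold change on the log2 scale was −0.73 with all 6 libraries (edgeR adjusted p = 0.425, SE 0.379) and −0.11 with those numbered 2 and 3 (edgeR adjusted p = 0.594, SE 0.163). Per kilobase of exon, Ddx58 stood 2.10 to 2.60 times above Ifih1 among the Ctl MSC libraries and 0.733 to 1.45 times among the MSC-TPr libraries. The order of the 2 sensors was therefore turned in MSC-TPr 2 and 3 and not in MSC-TPr 1.

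Eif2ak2 encodes PKR, the kinase that halts translation when it binds RNA duplexes, and lies on chromosome 17 from 78852564 to 78882573. It measured 100.1, 56.3 and 52.8 CPM among the Ctl MSC libraries and 38.8, 37.2 and 59.4 CPM among the MSC-TPr libraries. MSC-TPr 3 lay above Ctl MSC 2 and 3, and the log2 fold change was −0.63 (SE 0.318, edgeR adjusted p = 0.412). Tlr3, the endosomal member, lies on chromosome 8 from 45395665 to 45411080 and had 12.3, 6.30 and 5.24 CPM against 5.75, 4.02 and 5.75 CPM, a log2 difference of −0.61 (edgeR adjusted p = 0.501, SE 0.380). Among the libraries numbered 2 and 3, these changes were −0.17 for Eif2ak2 and −0.23 for Tlr3. Exons on the opposite strand overlap 221 bases of Eif2ak2 and 381 bases of Tlr3.

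Zbp1 encodes a sensor of left-handed nucleic acid that can trigger necroptosis, and lies on chromosome 2 from 173206612 to 173218923. Ctl MSC 1, 2 and 3 gave 169, 19 and 14 reads for it, and MSC-TPr 1, 2 and 3 gave 7, 13 and 17. Ctl MSC 1 had 10.2 CPM, which was 11.4 times the mean of Ctl MSC 2 and 3, and the other 5 libraries had 0.387 to 1.01 CPM. The log2 difference of −2.60 (SE 1.08, edgeR adjusted p = 0.328) rested on this library, since it was −0.45 without Ctl MSC 1 and −0.19 over the libraries numbered 2 and 3.

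The adaptors lay apart in opposite directions. Mavs lies on chromosome 2 from 131234063 to 131248025 and measured 38.5, 39.1 and 37.4 CPM among the Ctl MSC libraries and 55.8, 51.6 and 51.1 CPM among the MSC-TPr libraries. Each MSC-TPr library was higher, by at least 1.31 times at the nearest libraries, and the log2 fold change was 0.46 (SE 0.133, edgeR adjusted p = 0.203). DESeq2 gave 0.48 for Mavs (DESeq2 adjusted p = 0.0438), under the fold change threshold. Tmem173, the gene of STING on chromosome 18 from 35733679 to 35740554, measured 19.6, 16.8 and 17.8 CPM against 11.3, 11.0 and 9.64 CPM. The nearest libraries were 1.48 times apart, and the log2 fold change was −0.76 (SE 0.181, edgeR adjusted p = 0.155; DESeq2 adjusted p = 0.0101). Over the libraries numbered 2 and 3 it was −0.74 (edgeR adjusted p = 0.0105) for Tmem173 and 0.43 (edgeR adjusted p = 0.0242) for Mavs, the latter below the fold change threshold of 0.5. Per kilobase of exon, Tmem173 stood at 0.523 to 0.621 of the level of Mavs among the Ctl MSC libraries and at 0.230 to 0.260 among the MSC-TPr libraries.

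The kinase and the factor on which these routes converge had the smallest fold changes of the 10 genes over the 6 libraries. Tbk1 lies on chromosome 10 from 121546455 to 121586787 and had 90.2, 88.0 and 89.6 CPM among the Ctl MSC libraries and 79.6, 79.7 and 71.9 CPM among the MSC-TPr libraries. A log2 difference of −0.21 (edgeR adjusted p = 0.492, SE 0.128) went with groups that did not overlap. Irf3, on chromosome 7 from 44997648 to 45002848, had 21.8, 19.4 and 18.0 CPM against 22.7, 24.8 and 23.3 CPM, a log2 difference of 0.26 (edgeR adjusted p = 0.522, SE 0.167). The nearest libraries of Irf3 were 1.04 times apart. Without the libraries numbered 1, the values were −0.23 (edgeR adjusted p = 0.153) for Tbk1 and 0.36 (edgeR adjusted p = 0.0613) for Irf3. Exons of Bcl2l12 on the opposite strand overlap 88 bases of Irf3.

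**Figure D2:**
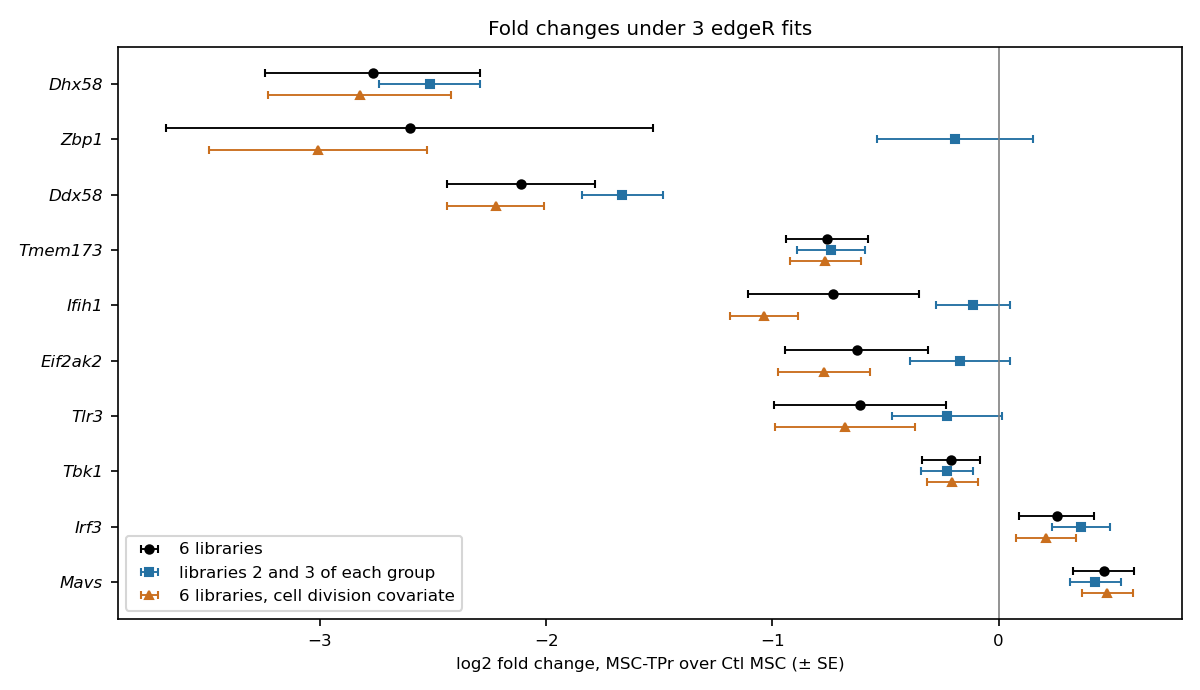
Log2 fold changes of MSC-TPr over Ctl MSC (points) with their SE (bars) from 3 edgeR fits: all 6 libraries (black circles), the libraries numbered 2 and 3 (blue squares) and all 6 with the cell division level as a covariate (orange triangles). Dhx58, Ddx58 and Tmem173 were below 0 and Mavs above 0 in each fit, while Zbp1 moved from −2.60 to −0.19 and Ifih1 from −0.73 to −0.11 without the libraries numbered 1.

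Within Ctl MSC, where library 1 had the high cell division level, the sensors fell into 2 patterns. The 6 genes Ddx58, Ifih1, Dhx58, Tlr3, Eif2ak2 and Zbp1 were 1.83 to 11.4 times higher in Ctl MSC 1 than in the mean of Ctl MSC 2 and 3. For Mavs, Tmem173, Tbk1 and Irf3 this ratio was 1.01 to 1.17. How many of all genes reach such ratios was not counted, and Ctl MSC 1 stood apart from Ctl MSC 2 and 3 over all genes too. Between the MSC-TPr libraries, the highest was 1.09 to 2.17 times the lowest over the 10 genes, and Ifih1 had the widest spread there. In MSC-TPr, the library numbered 1, which had the low cell division level, held the lowest value of Ifih1, Zbp1 and Irf3 and the highest of Dhx58, Mavs and Tmem173, and was level with library 3 for Tlr3.

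The libraries were therefore set beside those of the other label with a like cell division level. For Ifih1, Ctl MSC 1 had 54.3 CPM against 24.7 and 29.9 CPM in MSC-TPr 2 and 3, and Ctl MSC 2 and 3 had 26.7 and 32.6 CPM against 13.8 CPM in MSC-TPr 1. Among libraries of like cell division level, each MSC-TPr library was thus below each Ctl MSC library for Ifih1, and the values above show the same for Ddx58, Dhx58, Eif2ak2, Zbp1, Tmem173 and Tbk1. The share of all genes that lay so was not computed, so how unusual this is for the sensors cannot be judged. Tlr3 was below among the libraries with a high level, with 12.3 against 4.02 and 5.75 CPM, and lay between Ctl MSC 2 and 3 in MSC-TPr 1. With the cell division level as a covariate, edgeR called 6 of the 10 sensors, all lower, where it called 7.38% of all genes lower and 12.1% in either direction. These were Ddx58 (−2.22, edgeR adjusted p = 0.00111), Dhx58 (−2.82, edgeR adjusted p = 0.00596), Ifih1 (−1.04, edgeR adjusted p = 0.00602), Zbp1 (−3.01, edgeR adjusted p = 0.00919), Tmem173 (−0.77, edgeR adjusted p = 0.0222) and Eif2ak2 (−0.77, edgeR adjusted p = 0.0453). Mavs gave 0.48 (edgeR adjusted p = 0.0336), just under the fold change threshold. At each level 1 of the labels has a single library, Ctl MSC 1 or MSC-TPr 1, so this fit depends on the libraries numbered 1. Zbp1 was called here, although its log2 fold change was −0.45 without Ctl MSC 1. The covariate is measured in the same 6 libraries, and whether cell division acts on these genes was not tested. The covariate also splits the libraries as the labels would if those numbered 1 were exchanged. Under such an exchange, the calls of this fit would not compare MSC-TPr with Ctl MSC.

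**Figure D3:**
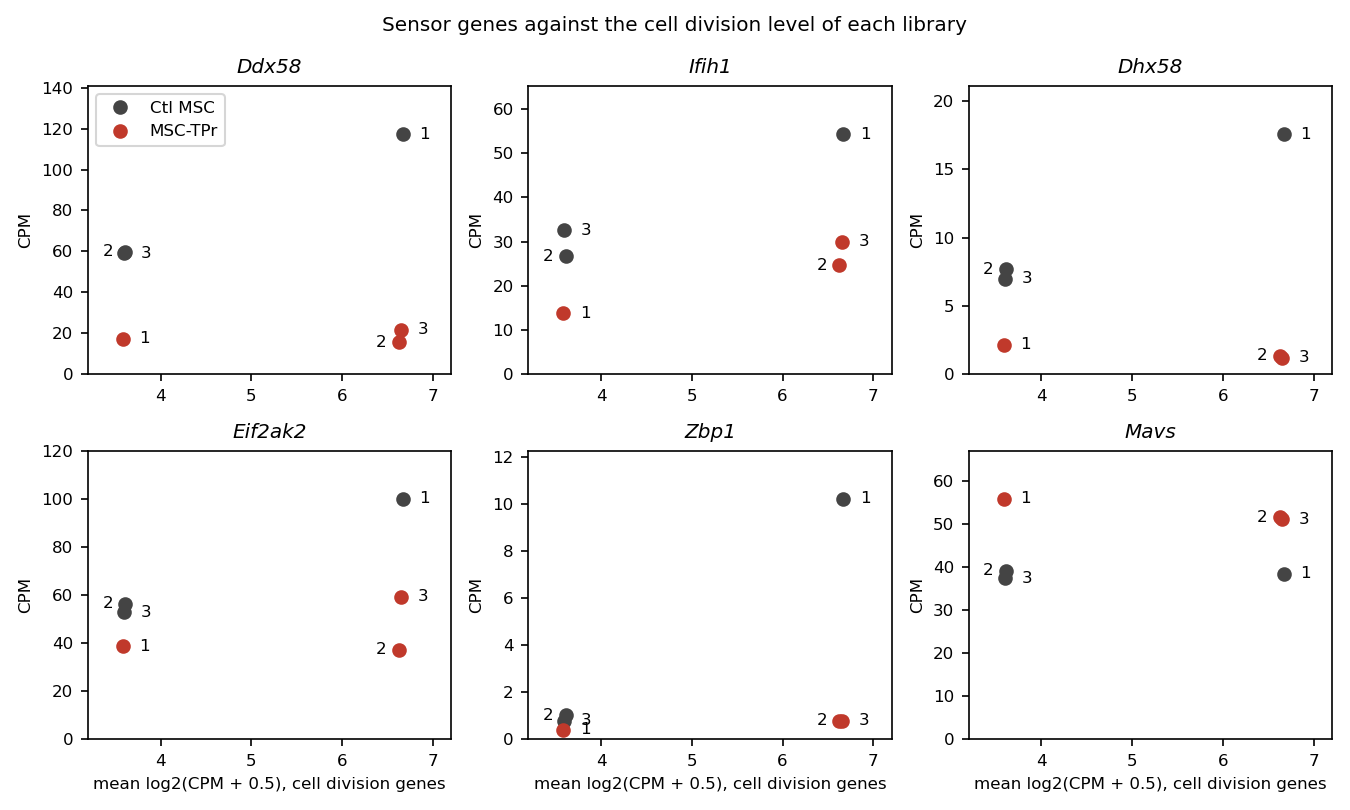
Level of 6 sensor genes (CPM, linear axes from 0) against the average log2(CPM + 0.5) of 22 genes of cell division in each library; grey points are Ctl MSC, red points MSC-TPr, and numbers are replicate numbers. Ifih1 was lower in the MSC-TPr libraries on each side of the plot (13.8 against 26.7 and 32.6 CPM on the left, 24.7 and 29.9 against 54.3 CPM on the right), and Mavs was higher on each side.

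Levels were compared between genes only per kilobase of exon (RPKM, the CPM divided by exon length, with exon lengths from the GENCODE annotation of mm10). Tbk1 was the highest in both groups, with 22.8 ± 0.290 RPKM in Ctl MSC and 19.7 ± 1.15 RPKM in MSC-TPr (SD, n = 3 each), and Zbp1 the lowest, with 1.13 ± 1.52 and 0.184 ± 0.0640 RPKM. In Ctl MSC, Eif2ak2 (13.6 ± 5.16 RPKM), Mavs (11.5 ± 0.257 RPKM) and Ddx58 (11.2 ± 4.73 RPKM) followed Tbk1. Tmem173 (6.58 ± 0.519 RPKM), Irf3 (5.73 ± 0.555 RPKM), Ifih1 (4.64 ± 1.78 RPKM) and Dhx58 (3.29 ± 1.81 RPKM) came next, ahead of Tlr3 (1.52 ± 0.727 RPKM). The mean ± SD ranges of all neighbours in this order after Tbk1 overlapped. In MSC-TPr the order after Tbk1 was Mavs (15.8 ± 0.777 RPKM), Eif2ak2 (8.82 ± 2.42 RPKM), Irf3 (6.85 ± 0.312 RPKM), Tmem173 (3.89 ± 0.328 RPKM), Ifih1 (2.79 ± 1.01 RPKM), Ddx58 (2.58 ± 0.454 RPKM), Tlr3 (0.994 ± 0.192 RPKM) and Dhx58 (0.481 ± 0.156 RPKM). Ddx58 thus went from rank 4 to rank 7 of the 10, and Irf3 from rank 6 to rank 4. Among MSC-TPr neighbours the ranges overlapped for Eif2ak2 and Irf3, Tmem173 and Ifih1, and Ifih1 and Ddx58, and not for the others.

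**Figure D4:**
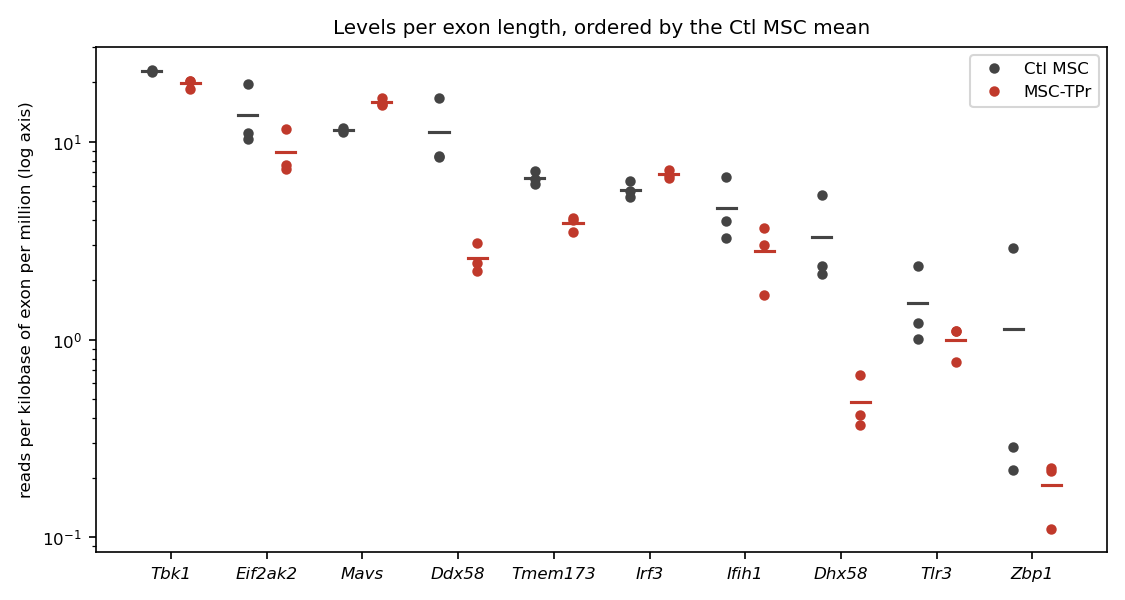
RPKM of the 10 sensor genes (log axis) in each library (points) with the group mean (bar), ordered by the mean of Ctl MSC; grey is Ctl MSC and red MSC-TPr. Ddx58 stood beside Mavs in Ctl MSC (11.2 and 11.5 RPKM) and far below it in MSC-TPr (2.58 and 15.8 RPKM).

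The other genes of these pathways were followed in a list of 105 genes in 11 roles, of which 95 passed the filter. edgeR called 4 of the 95, all lower in MSC-TPr, against 0.401% of all genes called lower, and DESeq2 called 12 lower and 3 higher, against 5.28% of all genes in either direction. The median log2 fold change of the list was −0.08 where that of all genes was 0.01, and 18 genes lay below and 8 above without overlap, where 12.1% and 10.6% of all genes did. The called genes were Nlrx1, Usp18, Ccl5 and Rsad2. None of the 4 had an adjusted p under 0.05 in edgeR in the fits without Ctl MSC 2, without Ctl MSC 3, without MSC-TPr 2 or without MSC-TPr 3, where it reached 0.154 for Nlrx1, 0.266 for Usp18, 0.220 for Ccl5 and 0.218 for Rsad2 at most. Rsad2 also missed the threshold without MSC-TPr 1.

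Among 13 negative regulators, 12 had a negative log2 fold change, as did 48.9% of all genes tested. Some of these were very small, as −0.009 for Atg5 and −0.025 for Rnf5. Only 3 of the 13 lay below without overlap (12.1% of all genes), and 9 were negative with the cell division covariate. Nlrx1, a mitochondrial protein that restrains MAVS signalling, lies on chromosome 9 from 44252717 to 44268599 and had 28, 53 and 51 reads among the Ctl MSC libraries and 1, 1 and 1 among the MSC-TPr libraries. The pooled level was 46.6 times higher in Ctl MSC (95% exact interval 15.6 to 229, counting error only), and the edgeR adjusted p was 0.0142. Usp18, which removes ISG15 from proteins and blocks the interferon receptor, measured 46.3, 22.8 and 25.6 CPM against 4.37, 2.36 and 1.72 CPM (log2 fold change −3.49, SE 0.470, edgeR adjusted p = 0.0485). Antisense genes overlap exons of Nlrx1 and of Usp18.

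Of the interferon genes, 4 were examined, and none was detectable at this depth, as Ifnb1 had 3 reads over the 6 libraries and Ifna4, Ifnl2 and Ifnl3 had 0. Of the 6 output genes tested, 5 were lower in each MSC-TPr library, against 12.1% of all genes. Ccl5, a chemokine of antiviral responses, measured 17.9, 24.9 and 26.0 CPM against 1.38, 3.67 and 2.78 CPM (log2 fold change −3.13, SE 0.397, edgeR adjusted p = 0.0391). Rsad2, which encodes viperin, measured 22.0, 13.9 and 13.1 CPM against 2.60, 3.43 and 3.38 CPM (−2.38, SE 0.292, edgeR adjusted p = 0.0352). Isg15, the ubiquitin-like modifier, had 106, 31.4 and 35.1 CPM against 5.48, 6.03 and 4.64 CPM and did not pass the threshold (−3.41, SE 0.533, edgeR adjusted p = 0.0722).

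Among the factors, Irf7, which amplifies interferon transcription, stood at 19.1, 8.75 and 9.59 CPM across Ctl MSC and 2.05, 1.71 and 1.53 CPM across MSC-TPr (−2.82, SE 0.386, edgeR adjusted p = 0.0504). Ddx60, a helicase that acts with RIG-I, had 166, 95 and 77 reads against 17, 7 and 6 (−3.56, SE 0.588, edgeR adjusted p = 0.0774). Both groups of Ddx60 and of Irf7 lay apart as those of Ddx58 and Dhx58 did. Trim25, the ubiquitin ligase linked to RIG-I, had 118, 106 and 95.2 CPM against 76.4, 47.4 and 60.0 CPM (−0.80, edgeR adjusted p = 0.183), and Ikbke, the kinase related to Tbk1, had 8.03, 8.75 and 8.43 CPM against 2.77, 3.90 and 5.38 CPM (−1.06, edgeR adjusted p = 0.192).

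For the endosomal route, Tlr7, Tlr8, Tlr9 and Tlr13 did not pass the filter, with at most 15 reads in any library, so Tlr3 was the only endosomal sensor tested. Unc93b1, which carries these receptors from the endoplasmic reticulum, measured 15.3, 15.6 and 18.4 CPM against 8.58, 5.68 and 7.05 CPM (−1.21, SE 0.229, edgeR adjusted p = 0.0936). Among 10 cytosolic DNA sensors and associated proteins, 8 had a negative log2 fold change (48.9% of all genes tested) and none was called. Some of these changes were very small, as −0.03 for Xrcc6 and −0.06 for Ddx41, and the median of the 10 was −0.10. With the cell division covariate 7 were negative. Ifi204 had the lowest log2 fold change of the 10 (−0.83, edgeR adjusted p = 0.242), followed by Polr3b (−0.42, edgeR adjusted p = 0.317). Ifi204 belongs to a family of near-identical genes, and reads with a multiple position were counted for no gene.

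Some genes of the list lay above without overlap, and none of these was called by edgeR. Tank, a scaffold of Tbk1, measured 84.5, 67.3 and 71.6 CPM across Ctl MSC and 116, 133 and 110 CPM across MSC-TPr (0.68, SE 0.159, edgeR adjusted p = 0.147; DESeq2 adjusted p = 0.0139). Tomm70a, a mitochondrial import receptor that binds MAVS, gave 0.48 (edgeR adjusted p = 0.215), and Tradd, another adaptor of this route, 0.29 (edgeR adjusted p = 0.461). On the PKR side, Eif2s1, the translation factor that PKR phosphorylates, measured 154, 115 and 123 CPM against 187, 308 and 226 CPM (0.88, SE 0.230, edgeR adjusted p = 0.183). Eif2ak4, a sister kinase of PKR that senses amino acid shortage, gave 0.51 (edgeR adjusted p = 0.202). Rnaseh2a, a subunit of the enzyme that removes RNA from DNA hybrids, gave 0.57 (edgeR adjusted p = 0.289) and Atf2 0.31 (edgeR adjusted p = 0.428). Map3k7, the kinase TAK1, lay below without overlap (−0.31, edgeR adjusted p = 0.336).

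Without the libraries numbered 1, edgeR called 38 of the 95 pathway genes tested, close to the 40.0% it called of all genes. Of these 38 genes, 22 were lower and 16 higher in MSC-TPr. Nlrx1 (−5.59), Usp18 (−3.58), Ccl5 (−2.99) and Rsad2 (−1.98) were among them, as were Ddx60 (−3.75), Isg15 (−2.64) and Irf7 (−2.50), with an edgeR adjusted p of at most 0.000614 each. Unc93b1 (−1.41), Trim25 (−0.91), Ikbke (−0.88), Tank (0.81) and Eif2s1 (1.16) were also called, with an edgeR adjusted p of at most 0.0192. Ifi204 moved from −0.83 to −0.39 (edgeR adjusted p = 0.0465), under the fold change threshold, and Atf2 from 0.31 to 0.17 (edgeR adjusted p = 0.244).

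**Figure D5:**
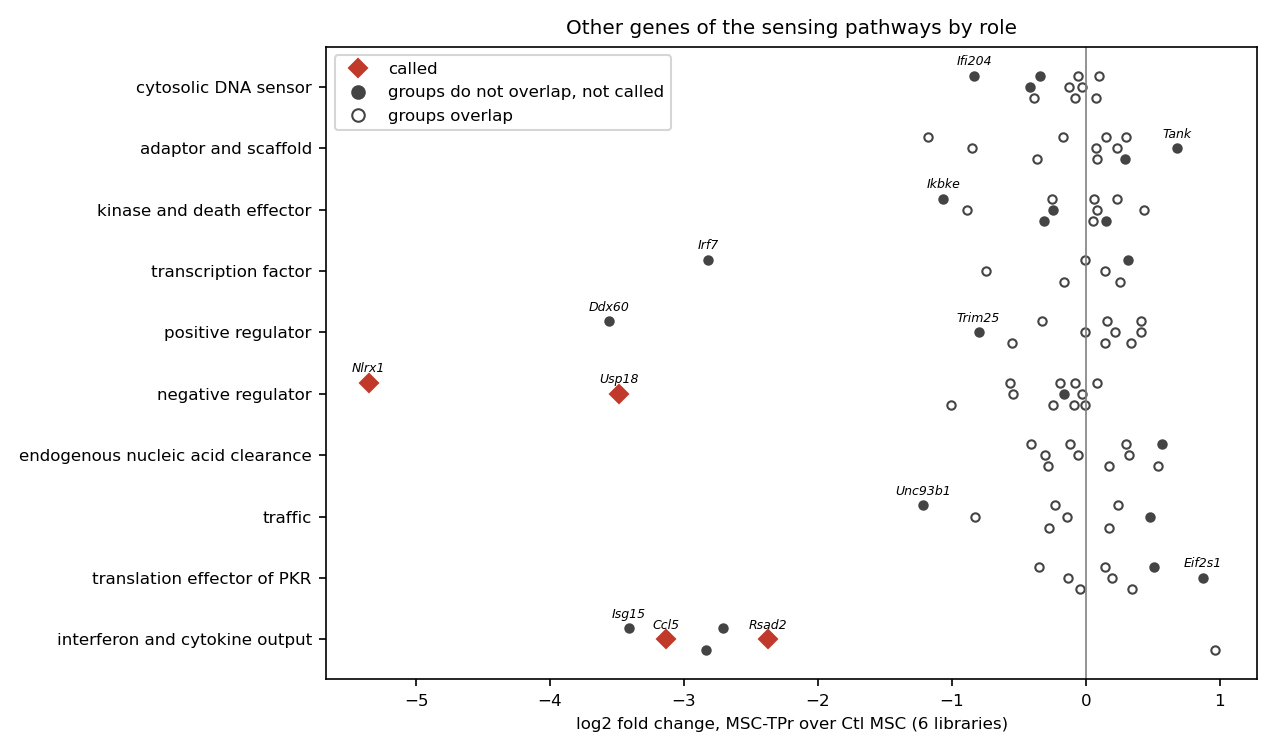
Log2 fold changes of MSC-TPr over Ctl MSC (6 libraries, edgeR) for 95 other genes of the sensing pathways, by role; red diamonds are called genes, filled circles genes whose groups do not overlap and open circles the others. The called genes (Nlrx1, Usp18, Ccl5 and Rsad2) and Ddx60, Irf7 and Isg15 lie below −2, whereas Tank and Eif2s1 lie above 0.5. Cxcl10 and Ifit1, whose points carry no name, also lie below −2.

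The genes whose pattern over the 6 libraries was most like the mean z-scored log2 CPM of the 10 sensors were Irgm1 (Pearson r = 0.999), Ifi35 (0.998), Rad51c (0.996), Paqr7 (0.995) and Cmpk2 (0.992), out of 10957 genes with a mean log2 CPM of at least 1. These correlations describe 6 points that share their libraries and depths. The mean was 1.13 in Ctl MSC 1, 0.072 and −0.025 in Ctl MSC 2 and 3, and −0.443 to −0.324 in MSC-TPr. It thus mainly follows Ctl MSC 1, and it pools genes that run in opposite directions. The correlation with the mean of the other members was −0.78 for Mavs and −0.414 for Irf3. Ctl MSC 1 was the highest library for each, as for Irgm1 with 147 CPM against 60.6 and 63.1 CPM in the other Ctl MSC libraries and 43.7 to 50.3 CPM in MSC-TPr.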

How the data were processed

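Polyadenylated RNA of 3 Ctl MSC and 3 MSC-TPr samples was sequenced from both ends after preparation with a stranded kit. The submitters' processing notes name CASAVA 1.8.2, Trimmomatic 0.35, TopHat2 2.1.0 and mm10, and the authors deposited Htseq-count read counts per gene symbol without normalization. Annotation and strand setting are not given in the sources used here. Rows for reads without a feature or with an ambiguous or multiple position were left out of library sizes, so that 79.2% to 86.2% of listed reads were used.

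Counts were tested with edgeR 4.0.16 in R 4.3.3 (TMM, filterByExpr, quasi-likelihood test, group as the only term, Benjamini-Hochberg over all genes tested). Calls needed an adjusted p under 0.05 together with a log2 change of 0.5 or more in either direction. The SE is the size of the log2 fold change over the square root of F. DESeq2 1.42.0, other scalings and filters, the replicate number as a block, a cell division covariate and fits without single libraries were alternatives. The tests were first tested on simulated data. Symbols were matched to GENCODE (21777 directly, 1278 by an older symbol, 365 not matched). The sensor genes and all lists were chosen with earlier results of these data known. Pathway genes named are all those called and, per role, up to 2 with the largest changes among genes without overlap. Others are given where they qualify a count.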

Additional observations from a re-analysis of the deposited data

How the results depend on the processing

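Over all 6 libraries edgeR called 51 genes, 0 sensor genes and 4 pathway genes. Without a filter on low counts it called 1 sensor gene (Ddx58), and with at least 10 counts in every library, which leaves out Zbp1, it called 31 genes and 2 pathway genes. DESeq2 called 683 genes, 3 sensor genes and 15 pathway genes. With the cell division covariate edgeR called 1446, 6 and 18 in that order. Over the libraries numbered 2 and 3 it called 4854, 3 and 38, and DESeq2, added after seeing the data, 4565, 3 and 36. Leaving out each library in turn gave 0 to 108 genes, 0 to 1 sensor gene and 0 to 6 pathway genes. With Ctl MSC 1 left out, 108 genes and 1 sensor gene (Ddx58) were called. With Ctl MSC 2, Ctl MSC 3 or MSC-TPr 3 left out, 0 genes were called (928, 925 and 1547 at an unadjusted p under 0.05), and without MSC-TPr 2 the count was 1 gene. The other filters and scalings left the counts within 1.5 times.

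The replicate block gave 0 genes, 0 sensor genes and 0 pathway genes in edgeR (776, 3 and 14 at an unadjusted p under 0.05). Same-numbered libraries deviated in opposite directions, with correlations across genes of −0.774, −0.62 and −0.619 for the pairs numbered 1, 2 and 3. Deviations from a group mean cancel within the group, and the libraries numbered 1 stood far apart in cell division level. These correlations therefore cannot decide whether same-numbered libraries share a culture or batch. No sensor gene or pathway gene named by the rule changed sign under any alternative run, and the sensors gained a call in 17 of 149 refits. Depth limits Zbp1, Nlrx1 and Ddx60, which had 1 to 17 reads in the MSC-TPr libraries.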

Other observations

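Some effectors of these routes did not fall in any group of named genes and were chosen after their values were seen. Mb21d1, which encodes cGAS, the DNA sensor upstream of STING, measured 26.0, 10.4 and 9.10 CPM in the order Ctl MSC 1, 2, 3 and 11.8, 19.7 and 16.4 CPM in the order MSC-TPr 1, 2, 3. The groups overlapped over the 6 libraries, with a log2 fold change of 0.08 (edgeR adjusted p = 0.952, SE 0.449). It was 0.89 (edgeR adjusted p = 0.00797) without the libraries numbered 1 and −0.13 (edgeR adjusted p = 0.705) with the cell division covariate. The 3 libraries with the high cell division level, Ctl MSC 1 and MSC-TPr 2 and 3, held the 3 highest values.

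Ripk3 and Mlkl, the kinase and the pore-forming effector through which ZBP1 can trigger necroptosis, were both present. Ripk3 measured 67.6, 29.4 and 29.1 CPM among the Ctl MSC libraries and 9.07, 30.2 and 28.9 CPM among the MSC-TPr libraries (−0.89, edgeR adjusted p = 0.494). Mlkl measured 69.9, 29.8 and 29.8 CPM against 46.1, 68.7 and 59.9 CPM (0.43, edgeR adjusted p = 0.638). Both overlapped between the groups over the 6 libraries. Without the libraries numbered 1, Ripk3 gave 0.02 (edgeR adjusted p = 0.911) and Mlkl 1.11 (edgeR adjusted p = 0.00145). With the cell division covariate, Ripk3 gave −1.41 (edgeR adjusted p = 0.00164) and Mlkl 0.26 (edgeR adjusted p = 0.345).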
